A study of Homo sapiens with 8 samples.

Results

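The genes described here are 37 genes of glycolysis and of the response to low oxygen, set out by role: 2 glucose transporters, 14 glycolytic enzymes, 2 lactate dehydrogenase subunits, 3 regulators of glycolytic flux, 4 genes of the hypoxia-inducible factor (HIF) and its prolyl hydroxylases, and 12 targets of HIF. They were chosen by name. A gene was represented by the transcript cluster (a set of probes summarised to 1 value) with the highest mean over all arrays among clusters annotated to that gene alone, which gave 36 of the 37 members out of 22465 genes on the array. CA9, a carbonic anhydrase, had no such cluster and was not analysed here.

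Total RNA was measured on Affymetrix Human Transcriptome Arrays in 4 groups of 2 arrays: WPMY-1 cells with Rauwolfia vomitoria (RWF) extract at 250 μg/ml, WPMY-1 cells with vehicle, BPH-1 cells with RWF extract at 250 μg/ml, and BPH-1 cells with vehicle, all for 24 h. WPMY-1 is an established line of human prostate stromal myofibroblasts, and BPH-1 is an established line of human prostate epithelium. WPMY-1 cells were kept in DMEM and BPH-1 cells in RPMI1640, so that line and medium cannot be told apart in any comparison of the lines, and no group was labelled as hypoxic. RWF extract is a mixture made from the root bark, and each line is 1 culture model of its cell type. Whether both arrays of a group are from separate cultures is not stated in the labels, and every p-value below rests on the gap between such arrays, which could be technical alone.

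Glycolysis converts glucose to pyruvate, and lactate dehydrogenase then turns pyruvate to lactate when it is not taken into the mitochondria. HIF is made of an alpha subunit, which prolyl hydroxylases mark for degradation when oxygen is present, and a stable partner, ARNT. When the alpha subunit is spared, HIF raises the transcription of glucose transporters, most glycolytic enzymes, PDK1, which inhibits pyruvate dehydrogenase and so keeps pyruvate out of the citric acid cycle, and genes of angiogenesis, mitophagy and matrix cross-linking. Much of this control acts on the HIF protein, which arrays of RNA do not measure.

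Epithelial and stromal markers set the lines apart as labelled. All 8 measured epithelial markers were lower and 10 of 11 measured stromal markers were higher in vehicle WPMY-1 than in vehicle BPH-1 cells (limma, adjusted p under 0.05). Of all clusters, 8.82% were lower and 7.82% higher. ACTA2, the smooth muscle actin expected of myofibroblasts, was the stromal marker that did not pass. The mean level of the 4 measured markers of differentiated luminal prostate, KLK2, KLK3, ACP3 and TMPRSS2, lay between 4.41 and 4.57 on the log2 scale on every array, near the median of all clusters of 4.57, and the table has no detection call to say whether such values lie above background. Of these 4 only ACP3 passed between the lines. It was higher in vehicle WPMY-1 cells, at 3.74 against 3.29 in vehicle BPH-1 cells (0.45, limma adjusted p = 0.0382), below that median in both. All values below are log2 expression values as deposited, and differences were tested with limma over all 67528 clusters, with Benjamini-Hochberg adjustment and a threshold of 0.05.

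Without RWF extract, the 2 lines differed in many of these genes. Of the 36 members, 6 were higher in vehicle WPMY-1 than in vehicle BPH-1 cells, where 7.82% of all clusters were higher, and 13 were lower, where 8.82% of all clusters were lower. Among the 15888 genes with a mean level over the median of all clusters, 16.1% were lower in WPMY-1 cells, against 36.1% of the members. On the higher side these shares were 15.9% and 16.7%, so that the higher members were about as frequent as among those genes. Those genes were not matched to the members in level. The mean level of the members was 8.055 to 8.109 on vehicle arrays, against a median of all clusters of 4.57. The members lower in WPMY-1 cells came from every role group except lactate dehydrogenase, and included all 3 regulators of flux. The median difference was -0.09 for the 21 glycolysis genes and -0.24 for the 15 measured HIF genes, against -0.01 for all clusters. The HIF genes were split, with 7 positive and 8 negative, and the 11 measured HIF targets among them had a median of 0.007. The glycolysis median was -0.05 without WPMY-1 vehicle replicate 1 and -0.04 under median centring.

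**Figure D1:**
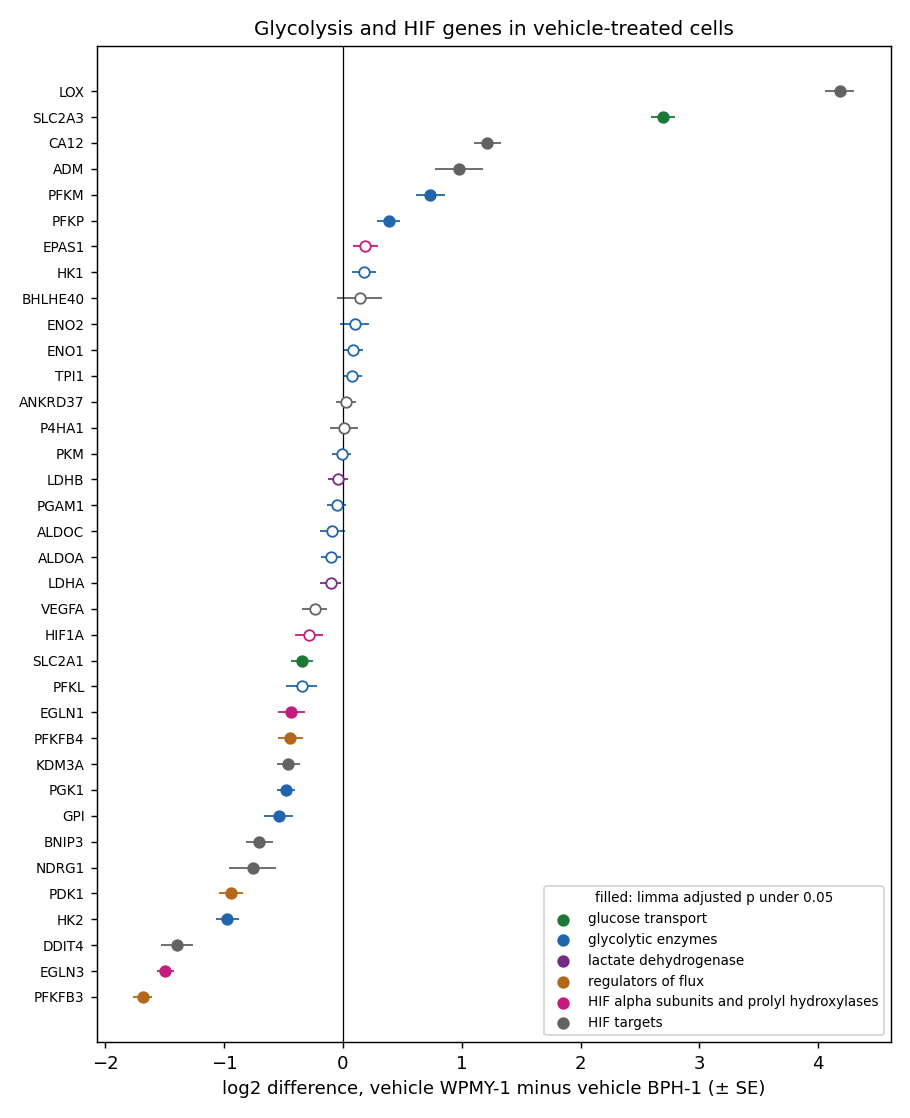
Difference between vehicle WPMY-1 and vehicle BPH-1 cells on the log2 scale, with its standard error, for each of the 36 measured genes, coloured by role; filled points passed limma at an adjusted p under 0.05. LOX and SLC2A3 lie far to the right at 4.18 and 2.69, and PFKFB3, EGLN3 and DDIT4 lie farthest to the left.

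LOX and SLC2A3 set the lines apart most. LOX, the lysyl oxidase that cross-links collagen and elastin, had 10.43 and 10.23 in vehicle WPMY-1 cells, against 6.14 and 6.15 in vehicle BPH-1 cells, a difference of 4.18 (18.2-fold, SE 0.12, adjusted p = 2.72e-07). SLC2A3, which encodes the high-affinity glucose transporter GLUT3, had 7.26 and 7.53 in vehicle WPMY-1 cells, against 4.71 and 4.70 in vehicle BPH-1 cells, a difference of 2.69 (6.47-fold, SE 0.10, adjusted p = 1e-06). The BPH-1 values of SLC2A3 were close to the median of all clusters, so its level there may be background. SLC2A3 may also share probes with its near-identical neighbour SLC2A14, whose difference was 1.00, and is therefore uncertain.

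SLC2A1, the widely expressed glucose transporter GLUT1, ran the other way. It had 8.20 and 8.44 in vehicle WPMY-1 cells, against 8.64 and 8.69 in vehicle BPH-1 cells, a difference of -0.35 (SE 0.093, adjusted p = 0.036). Of the 2 transporters, GLUT3 was thus higher and GLUT1 lower in the stromal line.

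The other members higher in WPMY-1 cells were a carbonic anhydrase, a peptide hormone and 2 isoforms of phosphofructokinase. CA12, a membrane carbonic anhydrase, had 7.55 and 7.69 in vehicle WPMY-1 cells, against 6.35 and 6.46 in vehicle BPH-1 cells (2.32-fold higher, adjusted p = 0.000153). ADM, which encodes the vasodilator adrenomedullin, had 7.95 and 7.58 in vehicle WPMY-1 cells, against 6.77 and 6.80 in vehicle BPH-1 cells (1.96-fold higher, adjusted p = 0.0113). PFKM and PFKP, the muscle and platelet isoforms of phosphofructokinase, differed by 0.73 and 0.38, while the liver isoform PFKL had -0.35 and did not pass.

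The members lower in WPMY-1 cells were led by PFKFB3, the kinase that makes fructose 2,6-bisphosphate and so speeds phosphofructokinase. It had 6.72 and 6.81 in vehicle WPMY-1 cells, against 8.46 and 8.43 in vehicle BPH-1 cells, a difference of -1.69 (3.22-fold, SE 0.080, adjusted p = 3.49e-06). Its paralog PFKFB4 differed by -0.44 and PDK1, the pyruvate dehydrogenase kinase, by -0.94, with 7.12 and 6.89 in vehicle WPMY-1 cells, against 8.02 and 7.87 in vehicle BPH-1 cells. HK2, the inducible hexokinase of the first step, had 7.04 and 7.21 in vehicle WPMY-1 cells, against 8.19 and 8.00 in vehicle BPH-1 cells (1.96-fold lower, adjusted p = 0.000221). GPI and PGK1, enzymes of later steps, were lower by smaller amounts, at -0.54 and -0.48.

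Among the genes of the oxygen response, EGLN3, a prolyl hydroxylase that HIF itself induces, had 4.37 and 4.43 in vehicle WPMY-1 cells, against 5.87 and 5.92 in vehicle BPH-1 cells, a difference of -1.49 (adjusted p = 4.41e-06). Its WPMY-1 values lay below the median of all clusters. DDIT4, a stress-induced inhibitor of mTORC1 also known as REDD1, had 7.12 and 6.97 in vehicle WPMY-1 cells, against 8.39 and 8.49 in vehicle BPH-1 cells (2.63-fold lower, adjusted p = 0.00017). NDRG1, a gene induced by low oxygen and by differentiation, had 7.90 and 8.01 in vehicle WPMY-1 cells, against 8.44 and 8.99 in vehicle BPH-1 cells, with a wide gap between the BPH-1 arrays (-0.76, SE 0.20, adjusted p = 0.0317). BNIP3, a mitophagy receptor, KDM3A, a histone demethylase, and EGLN1, the main oxygen-sensing prolyl hydroxylase, differed by -0.70, -0.46 and -0.43.

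The alpha subunits themselves did not pass between the lines. HIF1A had 10.34 and 10.08 in vehicle WPMY-1 cells, against 10.58 and 10.41 in vehicle BPH-1 cells (-0.29, adjusted p = 0.15). EPAS1, which encodes HIF-2 alpha, had 7.83 and 7.81 in vehicle WPMY-1 cells, against 7.58 and 7.69 in vehicle BPH-1 cells (0.19, adjusted p = 0.314). LDHA and VEGFA did not pass either, with -0.10 and -0.24. PGAM1 had -0.05, and the remaining members, HK1, ALDOA, ALDOC, TPI1, ENO1, ENO2, PKM, LDHB, ANKRD37, BHLHE40 and P4HA1, lay between -0.10 and 0.17.

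Single arrays mattered for the smaller of these differences. The count of 13 lower members was 8 without BPH-1 vehicle replicate 1 and 7 without BPH-1 vehicle replicate 2, and the count of 6 higher members was 4 without BPH-1 vehicle replicate 1. The members that lost the call in at least 1 of the fits without an array were SLC2A1, GPI, PFKP, PFKFB4, EGLN1, KDM3A, NDRG1 and ADM, and SLC2A1 and EGLN1 also lost it under median centring and PFKP under quantile normalization.

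RWF extract was set against vehicle within each line to ask how these genes responded. In WPMY-1 cells, 1 member passed the threshold, PGAM1, which fell, where 0.905% of all clusters fell, and 0 members rose, where 0.625% of all clusters rose. At an unadjusted p under 0.05, 12 members were lower, against 8.36% of all clusters, and 4 were higher, against 10.7% of all clusters. As shares of the 36 members these are 33.3% and 11.1%, set beside 12.4% and 13.5% of the genes over the median level. A difference of at least 1.3-fold with arrays that did not overlap was seen for 7 members on the lower side, against 3.90% of all clusters, and for 4 members on the higher side, against 2.67% of all clusters. Statements below that arrays did or did not overlap within 1 line describe values and are not tests. The share of all clusters with such gaps in 1 line, at any fold, is not given. It cannot be smaller than the share in both lines, which was 5.78% lower and 6.19% higher.

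PGAM1, phosphoglycerate mutase of lower glycolysis, had 8.82 and 8.76 in RWF-treated WPMY-1 cells, against 9.18 and 9.23 in vehicle WPMY-1 cells. The groups did not overlap, and PGAM1 fell by 0.42 (1.34-fold, SE 0.078, adjusted p = 0.0452). The call was lost under quantile normalization, in the fit of WPMY-1 alone, with the methods' t-test and in each fit without 1 array, while the difference stayed between -0.47 and -0.35 over all alternatives. PGAM1 has a near-identical copy, PGAM4, whose cluster had -0.56, and sharing of probes was not checked, so it is uncertain.

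Enzymes around PGAM1 in lower glycolysis lay on the same side, without passing. PGK1, phosphoglycerate kinase of the step that first yields ATP, had 9.88 and 9.88 in RWF-treated WPMY-1 cells, against 10.20 and 10.11 in vehicle WPMY-1 cells (-0.28, adjusted p = 0.109). ENO1, the enolase of most tissues, had 10.64 and 10.64 in RWF-treated WPMY-1 cells, against 10.92 and 10.92 in vehicle WPMY-1 cells (-0.28, adjusted p = 0.132). The enolase isoform ENO2 of nerve cells had the other sign, with 0.28 (adjusted p = 0.249). Processed copies of PGK1, ENO1, TPI1, LDHA and LDHB exist elsewhere in the genome, and whether their clusters share probes was not checked.

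Both lactate dehydrogenase subunits had both RWF arrays below both vehicle arrays in WPMY-1 cells. LDHA, the muscle subunit and a HIF target, had 8.85 and 8.98 in RWF-treated WPMY-1 cells, against 9.41 and 9.24 in vehicle WPMY-1 cells (-0.41, adjusted p = 0.0657). LDHB, the heart subunit, had 9.41 and 9.55 in RWF-treated WPMY-1 cells, against 9.89 and 9.86 in vehicle WPMY-1 cells (-0.40, adjusted p = 0.0601). Neither passed, although for each the nearest RWF and vehicle arrays lay farther apart than the 2 arrays of either group.

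At the entry of the pathway, the transporters and hexokinase lay on opposite sides. HK2 had 6.68 and 6.64 in RWF-treated WPMY-1 cells, against 7.04 and 7.21 in vehicle WPMY-1 cells (-0.46, 1.38-fold, adjusted p = 0.0611). SLC2A3 had 7.74 and 7.87 in RWF-treated WPMY-1 cells, against 7.26 and 7.53 in vehicle WPMY-1 cells (0.41, adjusted p = 0.0919). SLC2A1 had 8.56 and 8.51 in RWF-treated WPMY-1 cells, against 8.20 and 8.44 in vehicle WPMY-1 cells (0.21, adjusted p = 0.269). PFKM, the muscle phosphofructokinase, had -0.42 and GPI, glucose phosphate isomerase, had -0.26, whereas HK1, PFKL, PFKP, ALDOA, ALDOC and PKM had arrays that overlapped between the groups.

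Of the HIF genes in WPMY-1 cells, the 2 alpha subunits lay on opposite sides. EPAS1 had 8.49 and 8.24 in RWF-treated WPMY-1 cells, against 7.83 and 7.81 in vehicle WPMY-1 cells (0.54, 1.46-fold, SE 0.11), and its adjusted p of 0.05 stood just over the threshold before rounding. EPAS1 passed under quantile normalization, with trend and robust variances, with dim clusters left out, with 1 cluster per gene and with the mean of a gene's clusters. HIF1A had 9.85 and 9.88 in RWF-treated WPMY-1 cells, against 10.34 and 10.08 in vehicle WPMY-1 cells (-0.35, adjusted p = 0.172). HIF1A is overlapped by antisense RNAs, and whether the array's values separate the strands is not given in the sources used here.

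The targets of HIF were split in WPMY-1 cells, with 6 of 11 positive and 5 negative. DDIT4 had 7.79 and 7.46 in RWF-treated WPMY-1 cells, against 7.12 and 6.97 in vehicle WPMY-1 cells (0.58, adjusted p = 0.0744). LOX had 9.63 and 9.97 in RWF-treated WPMY-1 cells, against 10.43 and 10.23 in vehicle WPMY-1 cells (-0.53, adjusted p = 0.0755). BNIP3 had 8.10 and 8.31 in RWF-treated WPMY-1 cells, against 8.76 and 8.49 in vehicle WPMY-1 cells (-0.42, adjusted p = 0.107), and its cluster may share probes with the pseudogene BNIP3P1, which had -0.33. These 3 targets kept their groups apart, with the mTORC1 inhibitor on the higher side and the matrix and mitophagy genes on the lower. VEGFA, the main angiogenic growth factor, had 8.14 and 7.95 in RWF-treated WPMY-1 cells, against 7.82 and 7.97 in vehicle WPMY-1 cells, so that the groups overlapped (0.16, adjusted p = 0.433). CA12 had 7.26 and 7.27 in RWF-treated WPMY-1 cells, against 7.55 and 7.69 in vehicle WPMY-1 cells (-0.36, adjusted p = 0.156), and BHLHE40, a clock-linked transcriptional repressor, had 0.41 (adjusted p = 0.281).

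The regulators of flux and the remaining members with large vehicle differences did not pass in WPMY-1 cells. PFKFB3 had 6.52 and 6.65 in RWF-treated WPMY-1 cells, against 6.72 and 6.81 in vehicle WPMY-1 cells (-0.18, adjusted p = 0.276). PDK1 had 6.74 and 6.72 in RWF-treated WPMY-1 cells, against 7.12 and 6.89 in vehicle WPMY-1 cells (-0.27, adjusted p = 0.205). NDRG1, with 8.29 and 8.11 in RWF-treated WPMY-1 cells, against 7.90 and 8.01 in vehicle WPMY-1 cells, did not overlap between the groups. ADM had 8.03 and 7.46 in RWF-treated WPMY-1 cells and EGLN3 had 4.45 and 4.51, beside the vehicle values given above. Of the members not yet described, TPI1 had both RWF arrays below both vehicle arrays and PFKFB4 and ANKRD37 had them above, while EGLN1, KDM3A and P4HA1 overlapped.

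How many of these genes passed in WPMY-1 cells differed with the set of clusters fitted. That set changes both the estimate of the spread and the adjustment, and their parts were not tested. With dim clusters left out, 5 members were lower (HK2, LDHA, LDHB, LOX and PGAM1), against 3.37% of the clusters kept, and 2 were higher (DDIT4 and EPAS1), against 2.12%. With 1 cluster per gene 6 were lower, against 3.34% of genes, and 3 higher, against 2.67%, PGK1 and SLC2A3 having been added. Whichever 1 array was left out, at most 1 member passed, which was SLC2A3 without WPMY-1 vehicle replicate 2. Over all clusters 422 rose and 611 fell, and under median centring 270 rose and 823 fell. In the same comparison 4 of 11 stromal markers fell (COL1A1, COL1A2, COL6A3 and PRRX1), where 0.905% of all clusters fell. Of 8 epithelial markers 1 rose (CLDN1), where 0.625% of all clusters rose. By sign, 7 of the 8 were positive and 1 was negative. The negative one was KRT18, which had the highest level of the 8 in vehicle WPMY-1 cells (-0.65, limma adjusted p = 0.0669). KRT18 had both RWF arrays below both vehicle arrays and did not pass. The mean level of the stromal markers was 7.67 to 7.71 on RWF arrays, against 7.99 to 8.06 on vehicle arrays, that of the epithelial markers was 5.37 to 5.42 on RWF arrays, against 5.23 to 5.30 on vehicle arrays, and their part in the results was not tested. Fewer cells of a kind and less RNA per cell cannot be told apart in such bulk samples.

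In BPH-1 cells no member passed the threshold, where 0.0311% of all clusters fell and 0.00889% of all clusters rose (limma). At an unadjusted p under 0.05, 8 members were lower, against 3.09% of all clusters, and 3 were higher, against 2.74% of all clusters. A difference of at least 1.3-fold with non-overlapping arrays was seen for 2 members on the lower side, PFKFB3 and BNIP3, against 1.01% of all clusters, and for 2 on the higher side, DDIT4 and BHLHE40, against 0.906% of all clusters. Most glycolysis genes nonetheless lay on the lower side, with 19 of 21 negative, and had a median of -0.17, against -0.01 for all clusters. In WPMY-1 cells 15 of the 21 were negative, with a median of -0.10, against 0.04 for all clusters, and under quantile normalization 12 of the 21 were negative there. That median was -0.18 without WPMY-1 vehicle replicate 1, -0.06 without WPMY-1 vehicle replicate 2, -0.04 under quantile normalization and -0.16 under median centring.

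**Figure D2:**
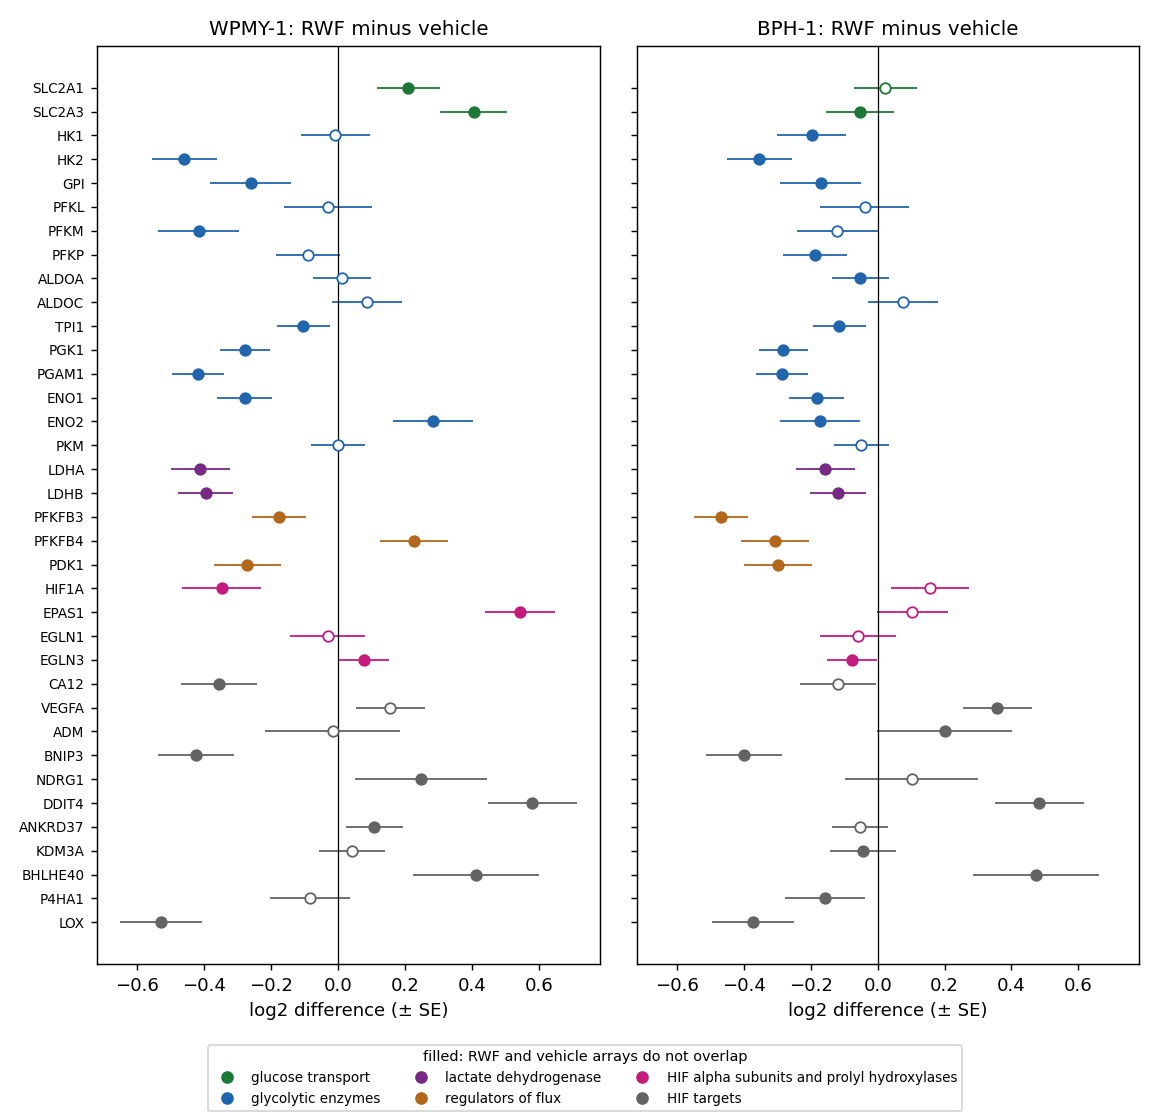
Difference between RWF extract and vehicle on the log2 scale, with its standard error, for the 36 measured genes in WPMY-1 cells (left) and BPH-1 cells (right), ordered by role; filled points have RWF and vehicle arrays that do not overlap. Most glycolysis genes lie left of 0 in BPH-1 cells (19 of 21), while SLC2A3, ENO2 and PFKFB4, with filled points in both panels, lie right of 0 in WPMY-1 and left of 0 in BPH-1 cells.

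The largest negative value in BPH-1 cells was that of PFKFB3, with 7.99 and 7.97 in RWF-treated BPH-1 cells, against 8.46 and 8.43 in vehicle BPH-1 cells (-0.47, 1.38-fold, SE 0.080, adjusted p = 0.138). PFKFB4 had 6.21 and 6.13 in RWF-treated BPH-1 cells, against 6.43 and 6.53 in vehicle BPH-1 cells (-0.31, adjusted p = 0.668). PDK1 had 7.69 and 7.60 in RWF-treated BPH-1 cells, against 8.02 and 7.87 in vehicle BPH-1 cells (-0.30, adjusted p = 0.684). All 3 regulators of flux lay on the lower side in the epithelial line without passing, and their vehicle levels there were also the higher of the 2 lines.

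Among the enzymes in BPH-1 cells, HK2 had 7.69 and 7.79 in RWF-treated cells, against 8.19 and 8.00 in vehicle cells (-0.35, adjusted p = 0.5). PGAM1 had 8.99 and 8.96 in RWF-treated BPH-1 cells, against 9.31 and 9.21 in vehicle BPH-1 cells (-0.29, adjusted p = 0.492). PGK1 had 10.37 and 10.33 in RWF-treated BPH-1 cells, against 10.64 and 10.62 in vehicle BPH-1 cells (-0.28, adjusted p = 0.471). These 3 enzymes kept their arrays apart, and so did LDHA, which had 9.30 and 9.25 in RWF-treated BPH-1 cells against 9.45 and 9.41 in vehicle BPH-1 cells (-0.16, adjusted p = 0.968).

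The HIF genes in BPH-1 cells again went both ways. DDIT4 had 8.79 and 9.06 in RWF-treated BPH-1 cells, against 8.39 and 8.49 in vehicle BPH-1 cells (0.48, adjusted p = 0.503). VEGFA had 8.55 and 8.42 in RWF-treated BPH-1 cells, against 8.20 and 8.06 in vehicle BPH-1 cells (0.36, adjusted p = 0.533). BNIP3 had 8.96 and 8.90 in RWF-treated BPH-1 cells, against 9.38 and 9.29 in vehicle BPH-1 cells (-0.40, adjusted p = 0.532). All 3 targets thus had groups that did not overlap, DDIT4 and VEGFA on the higher side and BNIP3 on the lower. HIF1A had 10.77 and 10.54 in RWF-treated BPH-1 cells, against 10.58 and 10.41 in vehicle BPH-1 cells, and EPAS1 had 7.66 and 7.82 in RWF-treated BPH-1 cells, against 7.58 and 7.69 in vehicle BPH-1 cells, so that both alpha subunits overlapped between the groups (0.16 and 0.10).

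LOX had 5.81 and 5.73 in RWF-treated BPH-1 cells, against 6.14 and 6.15 in vehicle BPH-1 cells (-0.37, adjusted p = 0.653). BHLHE40 had 7.91 and 7.24 in RWF-treated BPH-1 cells, against 7.02 and 7.18 in vehicle BPH-1 cells (0.47, SE 0.19, adjusted p = 0.811), with the RWF arrays far apart. The transporters SLC2A1, with 8.67 and 8.71 in RWF-treated BPH-1 cells, and SLC2A3, with 4.64 and 4.66, lay within 0.1 of their vehicle means. CA12 had 6.13 and 6.45 and NDRG1 8.58 and 9.05 in RWF-treated BPH-1 cells and overlapped with vehicle, while ADM had 6.81 and 7.17 and EGLN3 5.82 and 5.82, which did not overlap with vehicle and did not pass. Of the members not yet described, HK1, GPI, PFKP, ALDOA, TPI1, ENO1, ENO2, LDHB, KDM3A and P4HA1 had both RWF arrays below both vehicle arrays, and PFKL, PFKM, ALDOC, PKM, EGLN1 and ANKRD37 overlapped. Such gaps within 1 line have no test here and no share of all clusters beside them.

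**Figure D3:**
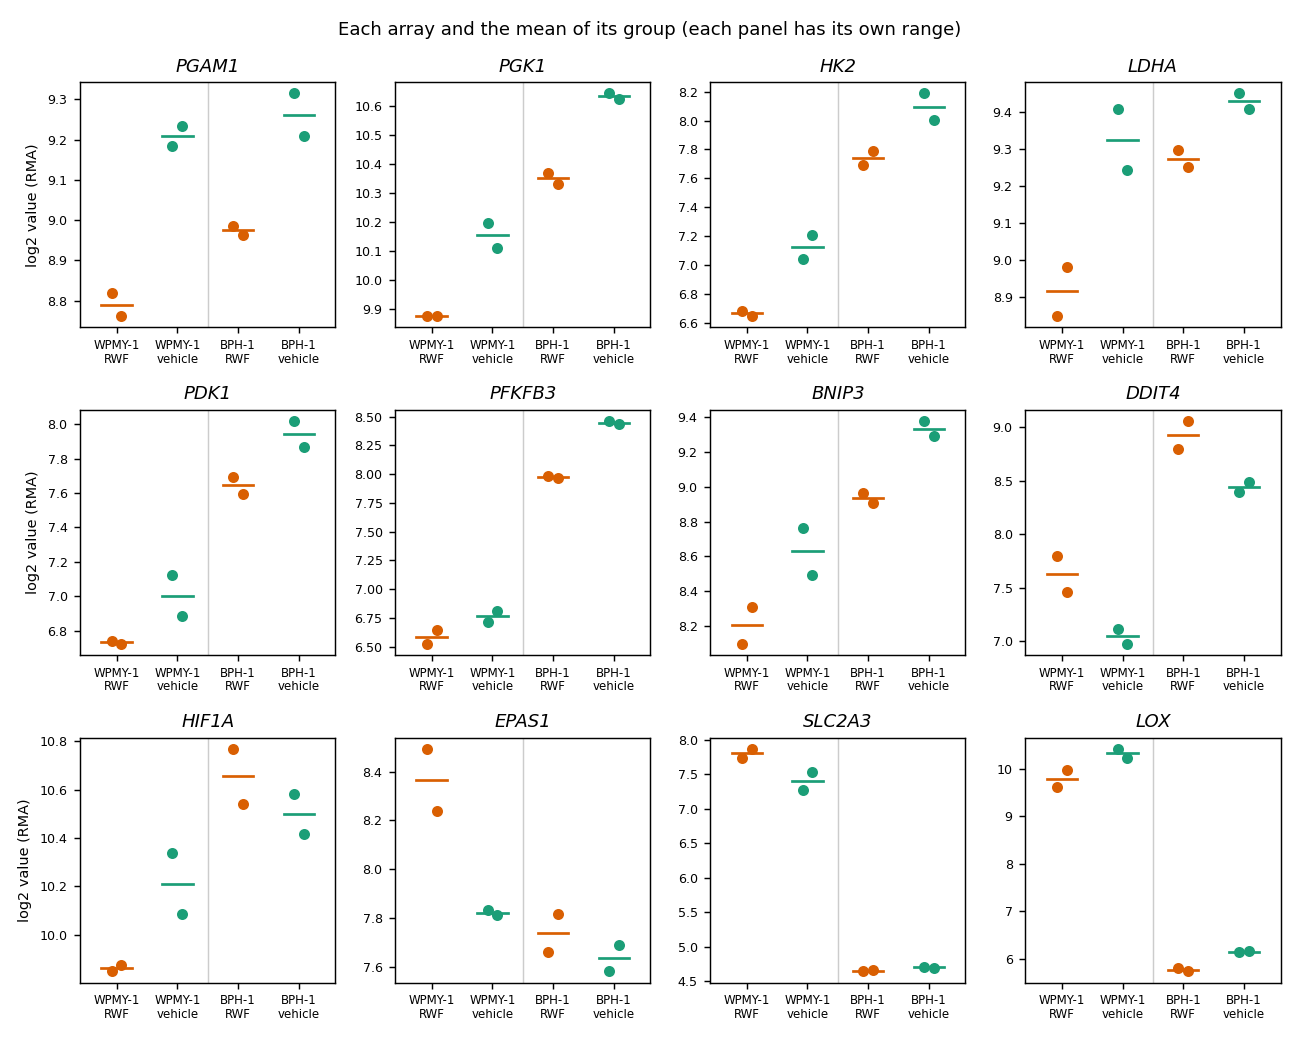
Log2 value of each array (points) and the mean of its group (bars) for 12 genes, in the order RWF-treated WPMY-1, vehicle WPMY-1, RWF-treated BPH-1 and vehicle BPH-1 cells; each panel has its own range. PGAM1, PGK1, HK2, LDHA, PDK1, PFKFB3, BNIP3 and LOX have both RWF arrays below both vehicle arrays in each line, and DDIT4 has both above.

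The 2 lines share no arrays in these comparisons, but their values come from 1 deposited table. Same-numbered vehicle arrays of the 2 lines deviated from their group means together (r = 0.27 over all clusters and 0.429 over the members). Between vehicle and RWF arrays these values were 0.125 and 0.427 in BPH-1 cells, and -0.0256 and 0.102 in WPMY-1 cells. Of the 36 members, 12 had both RWF arrays below both vehicle arrays in WPMY-1 and also in BPH-1 cells, against 5.78% of all clusters, which makes 33.3% of the members beside 8.72% of the genes over the median level. They were the enzymes HK2, GPI, TPI1, PGK1, PGAM1 and ENO1, the lactate dehydrogenase subunits LDHA and LDHB, the regulators PFKFB3 and PDK1, and the HIF targets BNIP3 and LOX. On the higher side there were 2 members, DDIT4 and BHLHE40, against 6.19% of all clusters. This count has no test, and it was chosen after the values of the members had been seen. Under quantile normalization 10 of these 12 stayed on the lower side in both lines, where 5.7% of all clusters were lower. Under median centring all 12 did, where 6.85% of all clusters were lower.

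**Figure D4:**
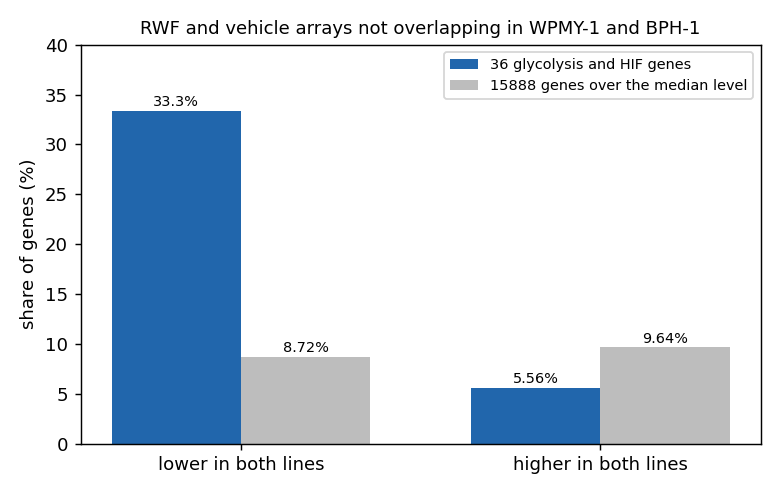
Share of genes, in percent, whose RWF and vehicle arrays did not overlap in WPMY-1 and in BPH-1 cells with the same direction in both, for the 36 measured members (blue) and for the 15888 genes with a mean level over the median of all clusters (grey). On the lower side the members stand at 33.3% and the other bar at 8.72%, and on the higher side at 5.56% and 9.64%.

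Over the 36 members, 27 had the same sign in both lines (75.0%), of which 20 were negative and 7 positive, against 63.2% of the genes over the median level. Pearson's r between the differences in WPMY-1 and in BPH-1 cells was 0.644 across the members and 0.438 across those genes. It is a description across genes, which are not independent replicates and whose values come from 1 deposited table.

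No member passed the test of a difference in response between the lines (limma on WPMY-1 effect minus BPH-1 effect), where 0.00444% of all clusters passed on the higher side and 0.00148% of all clusters on the lower. At an unadjusted p under 0.05, 5 members had the higher value in WPMY-1 cells (SLC2A3, ENO2, PFKFB3, PFKFB4 and EPAS1), against 5.20% of all clusters, and 2 had the lower value (LDHB and HIF1A), against 3.41% of all clusters. PFKFB4 had the largest of these, with 0.23 in WPMY-1 and -0.31 in BPH-1 cells and a difference of 0.53 (SE 0.14, adjusted p = 0.401). HIF1A, with -0.35 in WPMY-1 and 0.16 in BPH-1 cells, had a difference of -0.51 (SE 0.17, adjusted p = 0.484), and EPAS1 had 0.44 (SE 0.15, adjusted p = 0.496).

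After several members were seen to lie on the same side in both lines, promoters were read from a set of RefSeq promoters (GRCh38.p14). The set used here had an entry for 34 of the 37 members and none for SLC2A3, VEGFA and NDRG1, which were therefore not searched. The letters ACGTG, 1 form of the core of the element that HIF binds, and their reverse complement CACGT were sought in the 250 bases before each start. The form GCGTG was not sought, so a promoter without a match may still hold it. A palindrome CACGTG holds both and counts as 2 overlapping matches. At least 1 match stood before a start of 20 of the 34 genes (58.8%), against 21.7% of all 27305 genes with an entry. By start it was 25 of 60 (41.7%), against 18.5% of all starts. The members were chosen by name as genes of glycolysis and targets of HIF, so these shares do not bear on the response to RWF extract. Of the 12 genes that lay lower in both lines, 9 had a match, and PGAM1, ENO1 and LDHB had none, while DDIT4 and BHLHE40, which lay higher, both had one. A match is a description of the letters and does not show that HIF binds there.

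The following 5 promoters are shown because their genes carried the results above, 4 on the lower side in both lines and DDIT4 on the higher side. Each runs 5′ to 3′ on the strand of its gene and ends at the base before the start, with matches in capitals. PGAM1 is at chr10:97427568-97427817 (plus strand), PGK1 at chrX:78103998-78104247 (plus strand), LDHA, at the first of its 2 starts, at chr11:18394313-18394562 (plus strand), BNIP3 at chr10:131981924-131982173 (minus strand) and DDIT4 at chr10:72273674-72273923 (plus strand).
PGAM1: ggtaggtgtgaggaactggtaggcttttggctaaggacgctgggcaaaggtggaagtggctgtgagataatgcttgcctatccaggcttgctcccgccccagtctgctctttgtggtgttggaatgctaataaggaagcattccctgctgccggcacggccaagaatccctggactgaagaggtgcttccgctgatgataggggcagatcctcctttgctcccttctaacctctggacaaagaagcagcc
PGK1: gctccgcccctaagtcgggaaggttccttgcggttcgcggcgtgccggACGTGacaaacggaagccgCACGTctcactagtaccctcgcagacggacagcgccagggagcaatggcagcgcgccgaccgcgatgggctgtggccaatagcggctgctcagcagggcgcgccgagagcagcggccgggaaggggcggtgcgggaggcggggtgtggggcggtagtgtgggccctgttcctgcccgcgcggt
LDHA: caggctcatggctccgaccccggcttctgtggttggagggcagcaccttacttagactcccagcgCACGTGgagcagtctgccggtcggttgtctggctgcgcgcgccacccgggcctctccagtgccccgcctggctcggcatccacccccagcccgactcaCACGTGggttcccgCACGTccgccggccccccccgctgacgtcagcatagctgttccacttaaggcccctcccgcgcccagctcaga
BNIP3: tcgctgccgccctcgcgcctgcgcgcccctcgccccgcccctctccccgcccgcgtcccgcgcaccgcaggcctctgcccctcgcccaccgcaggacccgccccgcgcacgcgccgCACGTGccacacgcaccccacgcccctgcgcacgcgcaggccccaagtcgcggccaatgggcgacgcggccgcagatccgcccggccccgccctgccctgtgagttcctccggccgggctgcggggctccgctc
DDIT4: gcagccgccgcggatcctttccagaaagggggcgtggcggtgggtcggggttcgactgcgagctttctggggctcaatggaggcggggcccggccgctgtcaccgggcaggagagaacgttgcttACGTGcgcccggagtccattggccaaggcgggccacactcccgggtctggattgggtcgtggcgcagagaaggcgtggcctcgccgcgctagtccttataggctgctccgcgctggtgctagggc

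LDHA held 5 matches, from palindromes 185 and 87 bases before the start and a single CACGT at 73 bases. PGK1 held 2 separate matches, at 202 and 183 bases, BNIP3 a palindrome at 134 bases and DDIT4 a single ACGTG at 125 bases. PGAM1, the gene that passed the test in WPMY-1 cells, had no match in this window. Of the promoters shown, those of PGK1, LDHA and BNIP3, which lay lower, and that of DDIT4, which lay higher, held matches. Whether HIF took part in the response to RWF extract was not tested.

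Genes that feed on or compete with the same pathway were followed in lists set out by role. Pyruvate dehydrogenase carries pyruvate into the citric acid cycle. Of the 9 measured genes of that complex and its regulators, 2 fell in WPMY-1 cells, where 0.905% of all clusters fell, and 0 rose, where 0.625% rose. DLD, its dihydrolipoamide dehydrogenase, had 7.99 and 8.19 in RWF-treated WPMY-1 cells, against 8.84 and 8.68 in vehicle WPMY-1 cells (1.58-fold lower, SE 0.11, adjusted p = 0.0326). PDHA1, the subunit that PDK1 phosphorylates, had 7.89 and 8.05 in RWF-treated WPMY-1 cells, against 8.47 and 8.41 in vehicle WPMY-1 cells (1.39-fold lower, adjusted p = 0.0497). In BPH-1 cells DLD and PDHA1 had -0.30 and -0.11 and did not pass. The call of DLD was lost without BPH-1 RWF replicate 1 or 2, WPMY-1 vehicle replicate 1 and WPMY-1 RWF replicate 1 or 2 (adjusted p up to 0.156), and that of PDHA1 was lost whichever of the 8 arrays was left out (adjusted p up to 0.206). Both calls were also lost in the fit of WPMY-1 alone and with the methods' t-test, and that of PDHA1 under quantile normalization (adjusted p = 0.0654) and with the replicate number as a block (adjusted p = 0.0561).

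In the pentose phosphate pathway, which draws glucose 6-phosphate off to make NADPH and ribose, 1 of 5 measured genes rose in WPMY-1 cells and 0 fell. Of all clusters, 0.625% rose and 0.905% fell in that comparison. PGD, the 6-phosphogluconate dehydrogenase that yields NADPH, had 9.70 and 9.70 in RWF-treated WPMY-1 cells, against 8.81 and 9.15 in vehicle WPMY-1 cells (0.72, 1.65-fold, SE 0.14, adjusted p = 0.0466). It had 0.30 in BPH-1 cells (adjusted p = 0.87). The call was lost without either BPH-1 vehicle array, either WPMY-1 RWF array or WPMY-1 vehicle replicate 1 (adjusted p up to 0.172), and PGD stood at 0.55 without the last of these. It was also lost under median centring (adjusted p = 0.0513), with the replicate number as a block (adjusted p = 0.0514), in the fit of WPMY-1 alone and with the methods' t-test.

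Of 12 other measured glycolysis genes and 11 other genes of the HIF machinery, 0 passed under RWF extract in either line (limma). At an unadjusted p under 0.05, each of these lists had 1 gene on the higher and 1 on the lower side in WPMY-1 cells. Of all clusters, 10.7% were higher and 8.36% lower in this way, so that these counts are near those shares. In BPH-1 cells there was 1 such gene, PFKFB2, an isoform of the kinase PFKFB3, with 0.48, where 2.74% of all clusters were higher. ARNT, the partner of the HIF alpha subunits, had -0.31 in WPMY-1 cells, and GAPDH, the glyceraldehyde phosphate dehydrogenase often used as a loading control, had -0.09 in WPMY-1 and -0.06 in BPH-1 cells, with the other sign in both lines under quantile normalization.

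Of 30 other measured HIF targets, 1 rose, where 0.625% of all clusters rose, and 0 fell in WPMY-1 cells, where 0.905% fell. It was STC1, a secreted glycoprotein hormone, with 9.89 and 9.84 in RWF-treated WPMY-1 cells, against 9.40 and 9.21 in vehicle WPMY-1 cells (0.57, SE 0.094, adjusted p = 0.0315). In BPH-1 cells STC1 went the other way, with 4.09 and 4.17 in RWF-treated cells, against 4.69 and 4.82 in vehicle cells (-0.63, adjusted p = 0.0986), at levels near the median of all clusters. The difference in response between the lines was 1.20 (SE 0.13, adjusted p = 0.0776) and did not pass. With dim clusters left out, with 1 cluster per gene and with the mean of a gene's clusters, this difference passed (adjusted p from 0.0277 to 0.0489) and so did the value in BPH-1 cells (adjusted p from 0.0383 to 0.0486). The call in WPMY-1 cells was lost whichever of the 8 arrays was left out (adjusted p from 0.0534 to 0.149), in the fit of WPMY-1 alone and with the methods' t-test. The 30 targets had a median of 0.13 in WPMY-1 and -0.06 in BPH-1 cells, against 0.04 and -0.01 for all clusters.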

How the data were processed

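Total RNA of WPMY-1 and BPH-1 cells was measured after 24 h with RWF extract or vehicle, with 4 groups of 2 arrays. The deposited table holds a log2 expression value for every transcript cluster on every array, made by the authors. RMA, named without a version in the submitters' processing notes, corrects background, normalizes arrays to each other and summarizes probes, so that a shift shared by all genes is partly lost. No further normalization was applied. Precision is limited by the number of arrays. Clusters were named from the platform annotation (23781 with 1 symbol, 1543 with several, 42204 with none), and a gene is represented by its brightest cluster with 1 symbol. The members and lists were chosen with earlier results of these data known.

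Groups came from the labels. limma 3.58.1 in R 4.3.3 fitted all 8 arrays as 4 groups (4 residual and 4.34 prior degrees of freedom), adjusted by Benjamini-Hochberg over 67528 clusters at 0.05, and was tested on simulated data. Values per array are given by a rule: members past the threshold under RWF extract, up to 10 largest called differences between the lines, and HIF1A, EPAS1, SLC2A1, HK2, LDHA and VEGFA. Values per array of further members, and the named pathway genes, were chosen after their values were seen. Alternatives were quantile normalization, median centring, dim clusters left out (33764 kept), trend and robust variances, a replicate block, the methods' t-test, each line alone, 1 cluster per gene, the mean of a gene's clusters, folds of 1.3 with non-overlapping arrays, and each array left out; a lone remaining array was assumed to vary like the other groups. The counts of non-overlapping arrays in both lines and of negative glycolysis genes under other scalings were added after seeing the data. Promoters are from RefSeq (GRCh38.p14). matplotlib 3.10.9 under Python 3.11.15 drew the figures.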

Additional observations from a re-analysis of the deposited data

How the results depend on the processing

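In WPMY-1 cells, the count of members that fell under RWF extract was 1, and it was 0 under quantile normalization, in the fit of that line alone and with the methods' t-test, 3 under median centring, 5 with dim clusters left out, 6 with 1 cluster per gene and with the mean of a gene's clusters, 7 as folds of at least 1.3 with non-overlapping arrays, and 0 whichever 1 array was left out. The count that rose was 0, and it was 1 under quantile normalization and with trend and robust variances, 2 with dim clusters left out, 3 with 1 cluster per gene and with the mean of a gene's clusters, 4 as folds, and 0 to 1 without 1 array. Leaving out dim clusters or keeping 1 cluster per gene changes the clusters from which the spread is estimated and leaves fewer to adjust over. The counts over all clusters in WPMY-1 cells moved too. In the main fit 611 of 67528 fell and 422 rose. Quantile normalization gave 512 and 359, and median centring 823 and 270. With dim clusters left out 1139 of 33764 fell and 716 rose, and with 1 cluster per gene 751 of 22465 fell and 599 rose. In BPH-1 cells and for the difference between the lines the count was 0 on both sides under every alternative with a test, and as folds it was 2 on each side in BPH-1 cells. Between vehicle-treated lines the count of lower members was 13, 7 to 12 without 1 array, and that of higher members was 6, 4 to 6 without 1 array; both were 0 with the methods' t-test after adjustment. The cause of these changes was not tested. Values near 0 reversed their sign. Between the vehicle-treated lines, leaving out 1 array gave -0.1068 to 0.0001 for PGAM1, -0.2161 to 0.0384 for ALDOC, -0.0424 to 0.2402 for ENO2, -0.042 to 0.0217 for PKM, -0.0863 to 0.0042 for LDHB, -0.0329 to 0.085 for ANKRD37 and -0.1798 to 0.1939 for P4HA1, quantile normalization gave 0.0519 for PKM and -0.0276 for P4HA1, and median centring gave 0.0396 for PKM and 0.0088 for LDHB. Under RWF extract, leaving out 1 array gave -0.3041 to 0.2719 for ADM in WPMY-1 cells, and -0.0014 to 0.0481 for SLC2A1, -0.2772 to 0.0417 for CA12 and -0.1729 to 0.3757 for NDRG1 in BPH-1 cells, while quantile normalization gave 0.0528 for ADM and 0.0533 for GAPDH in WPMY-1 cells and 0.0178 for GAPDH in BPH-1 cells. Over all 36 members and 16 further pathway genes in the 4 comparisons, 3101 values under the alternatives kept direction and side of the threshold, 110 lost and 49 gained a call, and 120 reversed, none of them past the threshold before or after.

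For arrays not overlapping in both lines, quantile normalization gave 10 lower and 3 higher members, beside 5.7% and 6.35% of all clusters. Median centring gave 13 and 2, beside 6.85% and 4.86%. With the values as deposited the counts were 12 and 2, beside 5.78% and 6.19%. The labels do not say that a replicate number marks a shared batch or day, and the numbers were not taken to pair the arrays. Between the groups taken 2 at a time, deviations of same-numbered arrays correlated at -0.105 to 0.27 over all clusters and at -0.289 to 0.429 over the members, with the highest values between the vehicle arrays of the 2 lines. With the replicate number as a block, 1 member fell and 0 rose in WPMY-1 cells, where 874 of 67528 clusters fell and 501 rose. In BPH-1 cells 0 members passed. Between the lines 6 members were higher and 14 lower, where 5437 clusters were higher and 6064 lower. PDHA1 and PGD no longer passed in WPMY-1 cells in that fit. The number of arrays limits precision, and signal over background could not be judged without a detection call.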

Other observations

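Vehicle-treated WPMY-1 and BPH-1 cells also differed in genes near the pathways above. STC1 had 9.40 and 9.21 in vehicle WPMY-1 cells, against 4.69 and 4.82 in vehicle BPH-1 cells, a difference of 4.54 (23.3-fold, adjusted p = 6.79e-08, limma). Of the 30 other measured HIF targets, 6 were higher and 5 lower in WPMY-1 cells. Of the genes over the median level 15.9% were higher and 16.1% lower, and of all clusters 7.82% and 8.82%. The shares of these targets are near those of the genes over the median level, which were not matched to them in level. PLOD2, a lysyl hydroxylase of collagen, and GBE1, the glycogen branching enzyme, were higher by 0.82 each. ERO1A, an oxidase of the endoplasmic reticulum, AK4, a mitochondrial adenylate kinase, and PFKFB2, a paralog of PFKFB3, were lower, at -1.70, -1.63 and -0.84.

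PDK3, a pyruvate dehydrogenase kinase that HIF can induce, differed by -1.92 (adjusted p = 6.07e-06) and PGM1, which links glycolysis to glycogen, by -1.02, on the same side as PDK1 and PFKFB3. SLC16A7, which encodes the monocarboxylate carrier MCT2, was higher in WPMY-1 cells by 1.04. Under RWF extract STC2, a paralog of STC1, had 0.68 in WPMY-1 cells (adjusted p = 0.0573) and 0.53 in BPH-1 cells (adjusted p = 0.472), and VLDLR, a lipoprotein receptor, had 0.74 in WPMY-1 cells (adjusted p = 0.0676). None of these 3 values passed, although both WPMY-1 values did with dim clusters left out, with 1 cluster per gene or its clusters averaged, and with the replicate number as a block. These genes were picked from the lists after their values were seen.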
